A study of Mus musculus with 6 samples.

Results

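The genes described here take up long-chain fatty acids into heart cells, bind and activate them, carry them into mitochondria and oxidise them there, together with the electron carriers, thioesterases, uncoupling proteins and regulators of these steps. They were chosen by symbol as a list of 40 genes in 8 steps. Of these, 39 are in the deposited expression table of 14004 genes, and Ucp3, an uncoupling protein of muscle mitochondria, is not analysed here. All 39 passed the filter on low values, so every member in the table was tested among 12911 genes. The libraries came from heart ventricle of Rbpms KO mice (3 libraries) and of WT mice (3 libraries), all C57BL6 animals at postnatal day 1. Rbpms encodes an RNA-binding protein, and the labels name neither the allele of the knockout nor the sex of the animals. Polyadenylated RNA was sequenced with a stranded kit. The libraries of a genotype are labelled as biological replicates, and the number of animals in each is not stated, so p-values reflect how far these libraries differ from each other, which may be technical.

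Newborn heart muscle turns from glucose and lactate to fatty acids as its main fuel soon after birth. Lipoprotein lipase on the capillary wall frees fatty acids from circulating triglyceride, carriers bring them into the cardiomyocyte, and acyl-CoA synthetases trap them as CoA esters. The carnitine shuttle moves the acyl group across the inner mitochondrial membrane, where each turn of beta-oxidation shortens it and hands electrons to the respiratory chain. Nuclear receptors of the PPAR and ERR families, with the coactivator PGC-1alpha, switch on many of these genes.

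Most members were lower in Rbpms KO ventricle, by small amounts, and few differences passed the test. Expression was given as RPKM, reads per kilobase of gene length per 1000000 reads, and genotypes were compared with limma on log2(RPKM + 0.5), with Benjamini-Hochberg adjustment over all 12911 genes and a threshold of 0.05. At that threshold 5 of 39 members were called, against 6.37% of all tested genes. Of these, 4 members fell in Rbpms KO (Acsl1, Cpt2, Acaa2 and Esrra), against 3.99% of all tested genes, and 1 rose (Lpl), against 2.38%. The median log2 change of the 39 members was -0.22, beside -0.03 over all tested genes, and 32 of the 39 changes lay below 0, beside 56% of tested genes. In 13 members every Rbpms KO library lay below every WT library (18.2% of tested genes did so), in 3 every Rbpms KO library lay above (11.6%), and in 23 the groups overlapped. At an unadjusted p under 0.05 the members held 16 lower (14.1% of tested genes) and 3 higher (9.33%). In bulk tissue, fewer cells of a type and less RNA per cell cannot be told apart.

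**Figure D1:**
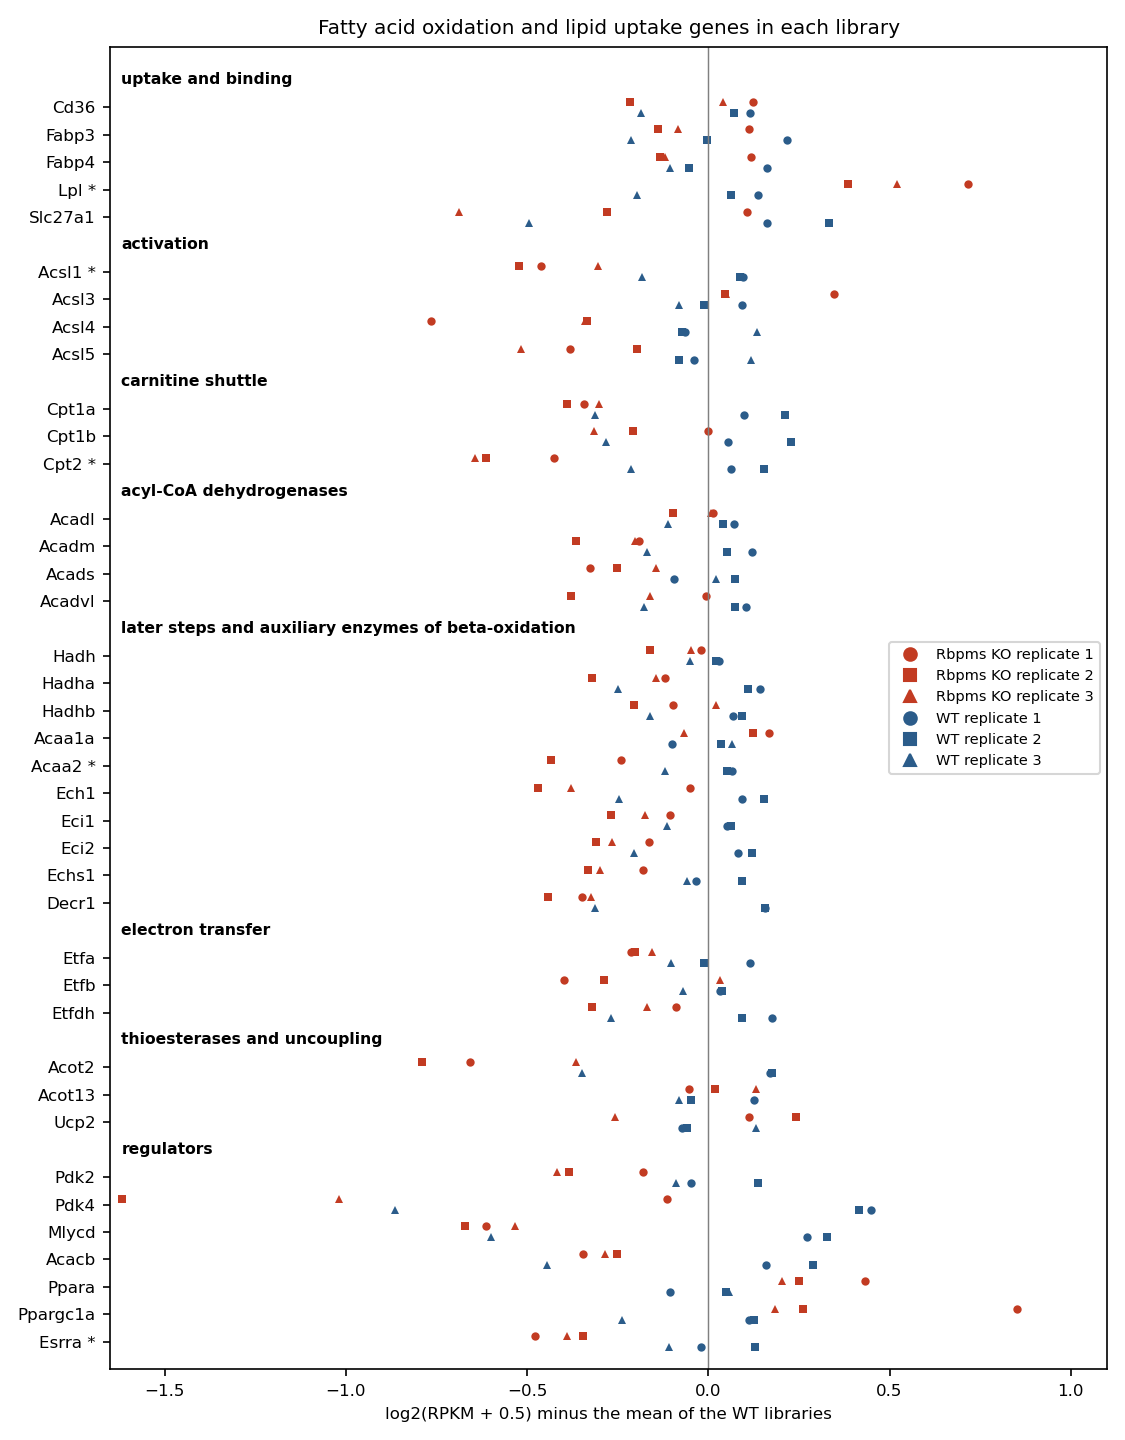
Each row is a member, grouped by step, and each point is a library: log2(RPKM + 0.5) minus the mean of the WT libraries, Rbpms KO in red and WT in blue, with a symbol for each replicate number. An asterisk marks the 5 members that passed the test. Most red points lie left of 0, Lpl lies right of it, and the blue triangle of WT replicate 3 is the lowest WT point in 33 of 39 rows.

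These results depend strongly on WT replicate 3 and on how WT replicates 1 and 2 are counted. WT replicate 3 was the lowest WT library in 33 of 39 members (84.6%), beside 33.5% of all tested genes. In 28 members (71.8%, beside 24.6% of tested genes) WT replicates 1 and 2 both lay above every Rbpms KO library. In 15 of those 28 WT replicate 3 did not, which is 38.5% of the members beside 6.4% of tested genes. Over all members WT replicate 3 lay within the Rbpms KO range in 18 (46.2%, beside 41.5% of tested genes) and below it in 8 (20.5%, beside 21.2%), both shares near those of all tested genes. WT replicates 1 and 2 were also the closest pair of libraries, with an SD of the log2 ratio of 0.132 over genes reaching 10 RPKM. For the remaining 14 pairs the SD was 0.244 to 0.496. Whether this pair differed by more than sampling noise was not tested, since whole reads were not recovered. Summed RPKM of 6 erythroid genes was 903, 690 and 745 in Rbpms KO and 735, 907 and 2408 in WT, highest in WT replicate 3, and its part in the member values was not tested.

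Markers of other cells also differed between the genotypes. Cardiomyocyte genes were abundant in all 6 libraries, with summed RPKM of 10 markers of 8101 to 9029 in Rbpms KO and 8884 to 9878 in WT. Of these 10, Myh7 rose and Myh6 fell. Summed RPKM of 6 airway secretory genes was 0.674 to 20.4 in Rbpms KO and 708 to 995 in WT, and all 6 were called lower. Of 5 smooth muscle genes 4 were called lower, with sums of 178 to 260 RPKM in Rbpms KO and 852 to 1004 RPKM in WT. Endothelial genes summed to 280 to 307 RPKM in Rbpms KO and 217 to 248 RPKM in WT, with 3 of 10 called higher. Fibroblast genes summed to 282 to 385 RPKM in Rbpms KO and 281 to 422 RPKM in WT, with Tcf21 the 1 of 6 called, higher. Of 5 tested macrophage genes Lyz2 was called lower, 2 of 3 alveolar type 2 genes were called lower, no skeletal muscle gene of 5 and no erythroid gene of 6 was called, and the 8 fat and 6 liver markers are not in the table. The part of these cell markers in the member values was not tested. Rbpms itself was at 0.594, 0.276 and 0.240 RPKM in Rbpms KO and 33.1, 35.7 and 38.1 RPKM in WT (exact permutation test, 2-sided, p = 0.1, the smallest that 3 against 3 allows), which follows the labels.

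Among the uptake and binding genes, Lpl rose and the other 4 were not called. Lpl, which encodes lipoprotein lipase, was at 204, 162 and 178 RPKM in Rbpms KO replicates 1, 2 and 3 and at 136, 130 and 108 RPKM in WT replicates 1, 2 and 3. Every Rbpms KO library lay above every WT library. Means were 182 ± 21.1 RPKM in Rbpms KO and 125 ± 14.8 RPKM in WT (SD, n = 3 each), a log2 change of 0.54 ± 0.12 (SE, limma adjusted p = 0.0344). The call was lost when any 1 library was left out (limma adjusted p = 0.0511 to 0.121) and when WT replicates 1 and 2 were counted as their mean (0.0946), with log2 changes of 0.44 to 0.62 as libraries were left out. Lpl lies on chromosome 8, GRCm38 68880491 to 68907448, plus strand. Of 10 endothelial markers, Pecam1, Tie1 and Emcn rose and 7 were not called. Among those 7, Cdh5, Tek, Egfl7, Flt1 and Esam had log2 changes of 0.18 to 0.35, and Kdr and Cldn5 of 0.05 and -0.06. The part of endothelial RNA in the Lpl value was not tested. Gpihbp1, which anchors lipoprotein lipase to the endothelium, did not pass the test (log2 change -0.09).

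The fatty acid carriers were among the most abundant members and showed small differences. Cd36, the membrane fatty acid translocase, was at 324, 256 and 306 RPKM in Rbpms KO and 322, 313 and 261 RPKM in WT. The groups overlapped across nearly the same range, and the log2 change was -0.02 ± 0.12 (SE), with 0.02 after rescaling each library by its median ratio. Fabp3, the heart fatty acid binding protein, was at 432, 362 and 377 RPKM in Rbpms KO and 464, 399 and 344 RPKM in WT, and the groups overlapped (log2 change -0.04). Fabp4, a fatty acid binding protein of fat cells, macrophages and capillary endothelium, had a log2 change of -0.05. Slc27a1, the fatty acid transport protein FATP1, was low and variable, at 4.18, 3.07 and 2.20 RPKM in Rbpms KO and 4.36, 4.98 and 2.58 RPKM in WT (log2 change -0.29, limma adjusted p = 0.545). Its replicate values spread more within each genotype than the genotypes differed.

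Of the 4 acyl-CoA synthetases, which attach CoA to fatty acids, Acsl1 fell. Acsl1, the main long-chain synthetase of heart muscle, was at 41.4, 39.6 and 46.2 RPKM in Rbpms KO and 61.2, 60.7 and 50.3 RPKM in WT. All Rbpms KO libraries lay below all WT libraries, with WT replicate 3 the nearest to them. The log2 change was -0.43 ± 0.10 (SE, limma adjusted p = 0.0449, 0.0205 to 0.198 as single libraries were left out, 0.178 with WT replicates 1 and 2 averaged). The gene lies on chromosome 8, GRCm38 46471037 to 46536051, plus strand.

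The other synthetases did not pass the test and did not share 1 direction. Acsl4, which prefers arachidonic acid, was at 11.1, 15.2 and 15.1 RPKM in Rbpms KO and 18.4, 18.3 and 21.2 RPKM in WT (log2 change -0.48, limma adjusted p = 0.0682). Here the groups did not overlap and WT replicate 3 was the highest WT library. Acsl5, a synthetase of mitochondria and endoplasmic reticulum, had non-overlapping groups as well (log2 change -0.37, limma adjusted p = 0.0887). Acsl3, a synthetase of the endoplasmic reticulum and lipid droplets, was at 37.7, 30.5 and 30.6 RPKM in Rbpms KO and 31.6, 29.4 and 27.9 RPKM in WT, and these overlapped (log2 change 0.15). As shares of the summed RPKM of the 4 synthetases, Acsl1 made up 43.0, 43.0 and 47.5% in Rbpms KO and 51.5, 52.4 and 46.5% in WT. Acsl3 made up 39.2, 33.1 and 31.5% in Rbpms KO and 26.6, 25.3 and 25.9% in WT, with no overlap, so the summed synthetase RNA held relatively more Acsl3 in every Rbpms KO library. The sum itself was 96.2, 92.2 and 97.3 RPKM in Rbpms KO and 119, 116 and 108 RPKM in WT. These shares are a description without a test, and 244 bases of Acsl3 exon sequence overlap Utp14b on the same strand.

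The carnitine shuttle showed the largest called decrease among the members. Cpt2, carnitine palmitoyltransferase 2 of the inner mitochondrial membrane, which rebuilds acyl-CoA in the matrix, was at 15.2, 13.3 and 13.0 RPKM in Rbpms KO and 21.5, 22.9 and 17.6 RPKM in WT. The groups did not overlap. Means were 13.8 ± 1.20 RPKM in Rbpms KO and 20.7 ± 2.72 RPKM in WT (SD, n = 3 each), a log2 change of -0.56 ± 0.11 (SE, limma adjusted p = 0.0280). The adjusted p was 0.0132 to 0.134 as single libraries were left out and 0.126 with WT replicates 1 and 2 averaged, while the log2 change stayed between -0.67 and -0.48 as single libraries were left out. Cpt2 lies on chromosome 4, GRCm38 107903981 to 107923610, minus strand.

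Neither form of carnitine palmitoyltransferase 1, the malonyl-CoA-sensitive entry enzyme of the outer membrane, was called. Cpt1a, the liver form, which fetal and newborn hearts also express, was at 26.5, 25.7 and 27.3 RPKM in Rbpms KO and 36.2, 39.2 and 27.1 RPKM in WT. The Rbpms KO libraries lay close together, and WT replicate 3 lay among them while the other two WT libraries stood higher. The log2 change was -0.34 (limma adjusted p = 0.157, and 0.0161 without WT replicate 3). Cpt1b, the muscle form, was listed at 1.28, 1.04 and 0.928 RPKM in Rbpms KO and 1.34, 1.58 and 0.960 RPKM in WT, with overlapping groups (log2 change -0.17). The listed ratio of Cpt1a to Cpt1b was 20.8, 24.8 and 29.5 in Rbpms KO and 27.0, 24.8 and 28.3 in WT.

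The listed Cpt1b level is much lower than the reads across its exons. In the GENCODE M21 annotation, 2744 of the 3372 exon bases of Cpt1b (chromosome 15, GRCm38 89416405 to 89425863, minus strand) are overlapped on the same strand by the gene model Gm44502, which is not in the expression table. In the authors' deposited splicing tables, 3 Cpt1b exons included in at least 90% of transcripts carried a median of 420 inclusion junction reads per library, at 1.19 RPKM, which is 354 reads per RPKM. For Cpt1a 3 such exons carried 85.2 reads at 30.4 RPKM, or 2.81 reads per RPKM. Etfb, of which 617 of 1164 exon bases overlap Gm45233, had 52.5 reads per RPKM. The other 25 members with such exons had 2.81 to 26.4, with a median of 7.30. The highest of these 25 was Fabp4, whose listed length of 4.489 kb matches its whole gene span. The RPKM levels of Cpt1b, Etfb and Fabp4, and the listed ratio of Cpt1a to Cpt1b, are therefore uncertain as levels. For 1 Cpt1b exon the 3 libraries of the first set of the splicing tables held 523, 564 and 463 inclusion reads and those of the second set 398, 312 and 389, and the headers do not say which set is which genotype. These reads are not scaled for depth, which is unknown, so they do not compare the Cpt1b level of the sets.

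**Figure D2:**
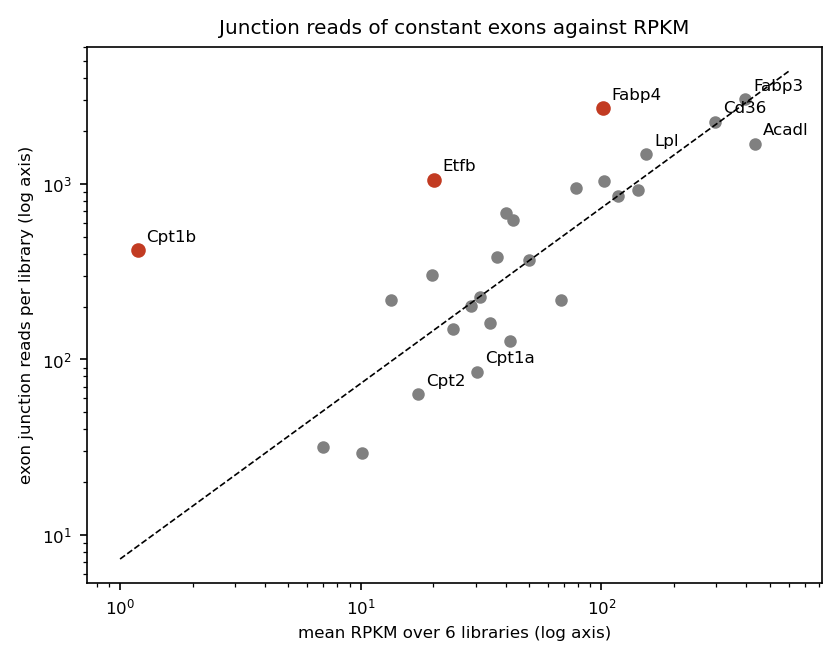
Each point is a member, with its mean RPKM over 6 libraries on the horizontal log axis and the median inclusion junction reads per library of its constant exons on the vertical log axis. The dashed line marks 7.30 reads per RPKM, the median of the 25 members other than Cpt1b and Etfb. Cpt1b, Etfb and Fabp4 (red) stand above it, at 354, 52.5 and 26.4 reads per RPKM.

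The acyl-CoA dehydrogenases, which carry out the first step of each beta-oxidation turn on chains of different length, all had log2 changes below 0 (Acadl alone above 0 after rescaling by the median ratio), and none was called. Acadl, the long-chain enzyme, had the highest listed mean RPKM of all members, at 442, 410 and 441 RPKM in Rbpms KO and 461, 451 and 406 RPKM in WT. The Rbpms KO values lay inside the WT range (log2 change -0.03, and 0.01 after that rescaling). Acadm, the medium-chain enzyme, was at 97.8, 86.6 and 97.0 RPKM in Rbpms KO and 121, 116 and 99.3 RPKM in WT (log2 change -0.25, limma adjusted p = 0.158). Every Rbpms KO library lay below every WT library, WT replicate 3 by a small margin. Acads, the short-chain enzyme, did not overlap either (log2 change -0.24), and Acadvl, the very-long-chain enzyme, did (log2 change -0.18).

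Of the 10 enzymes of the later steps, Acaa2 fell and 9 were not called. Acaa2, the mitochondrial 3-ketoacyl-CoA thiolase of the last step, was at 183, 160 and 160 RPKM in Rbpms KO and 226, 224 and 199 RPKM in WT. The groups did not overlap. The log2 change was -0.37 ± 0.09 (SE, limma adjusted p = 0.0483, 0.0287 to 0.209 as single libraries were left out, 0.187 with WT replicates 1 and 2 averaged). A stricter filter on low values, 1 RPKM in 3 libraries, ended the call (0.0509). Acaa2 lies on chromosome 18, GRCm38 74779197 to 74806208, plus strand.

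The remaining 9 later enzymes did not pass the test. Hadha and Hadhb, the subunits of the mitochondrial trifunctional protein, lie on opposite strands of chromosome 5 and had log2 changes of -0.19 and -0.09. With start sites at 30154980 and 30155253, 272 bases lie between them. In GENCODE M21 the 2 genes begin closer together, at 30155162 and 30155248. The RPKM ratio of Hadha to Hadhb was 2.15, 2.02 and 1.94 in Rbpms KO and 2.30, 2.21 and 2.05 in WT. Hadh, the short-chain hydroxyacyl-CoA dehydrogenase, had a log2 change of -0.08. Decr1, the dienoyl-CoA reductase needed for polyunsaturated chains, was at 23.3, 21.8 and 23.7 RPKM in Rbpms KO and 33.3, 33.4 and 23.9 RPKM in WT. WT replicate 3 lay just above the Rbpms KO libraries, which were close together (log2 change -0.37, limma adjusted p = 0.130, and 0.0129 without WT replicate 3). Echs1, the short-chain enoyl-CoA hydratase, did not overlap between groups (log2 change -0.27, limma adjusted p = 0.0861). The isomerases Ech1, Eci1 and Eci2, which reposition double bonds, had log2 changes of -0.30, -0.18 and -0.25. Acaa1a, a peroxisomal thiolase, had the only positive value of the step, 0.07, with 4.90, 4.73 and 4.08 RPKM in Rbpms KO and 3.98, 4.42 and 4.52 RPKM in WT.

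The electron transfer genes, which pass electrons from the dehydrogenases to ubiquinone, were not called. Etfa, the alpha subunit of electron transfer flavoprotein, was at 130, 131 and 136 RPKM in Rbpms KO and 163, 150 and 141 RPKM in WT, without overlap (log2 change -0.19, limma adjusted p = 0.186). Etfb, the beta subunit, was at 16.3, 17.6 and 22.2 RPKM in Rbpms KO and 22.2, 22.2 and 20.6 RPKM in WT, with 1 Rbpms KO library among the WT values (log2 change -0.22). Etfdh, the ubiquinone oxidoreductase, had a log2 change of -0.19 with overlapping groups. Among thioesterases and uncoupling genes, Acot2, a mitochondrial acyl-CoA thioesterase, was at 17.6, 15.98 and 21.7 RPKM in Rbpms KO and 31.6, 31.7 and 21.9 RPKM in WT. WT replicate 3 stood just above the highest Rbpms KO library (log2 change -0.60, limma adjusted p = 0.0701, and 0.0201 without WT replicate 3). Acot13, a thioesterase with broad specificity, had a log2 change of 0.03. Ucp2, an uncoupling protein also found in immune cells, was at 7.61, 8.36 and 5.77 RPKM in Rbpms KO and 6.63, 6.70 and 7.71 RPKM in WT, with WT inside the Rbpms KO range (log2 change 0.03).

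Of the 7 regulators, Esrra fell and 6 were not called. Esrra, the nuclear receptor ERRalpha, was at 10.2, 11.2 and 10.8 RPKM in Rbpms KO and 14.2, 15.8 and 13.3 RPKM in WT. All Rbpms KO libraries lay below all WT libraries. The log2 change was -0.40 ± 0.09 (SE, limma adjusted p = 0.0352, 0.0325 to 0.179 as single libraries were left out, 0.140 with WT replicates 1 and 2 averaged). Esrra lies on chromosome 19, GRCm38 6910977 to 6921813, minus strand.

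Ppara and Ppargc1a, the receptor PPARalpha and its coactivator PGC-1alpha, had positive values without a call. Ppargc1a was at 52.3, 34.5 and 32.7 RPKM in Rbpms KO and 31.1, 31.4 and 24.3 RPKM in WT (log2 change 0.43, limma adjusted p = 0.2004). Ppara was at 6.39, 5.57 and 5.38 RPKM in Rbpms KO and 4.24, 4.78 and 4.81 RPKM in WT (log2 change 0.30, limma adjusted p = 0.122). In both genes every Rbpms KO library lay above every WT library, and Rbpms KO replicate 1 was the highest. These genes and Lpl were the 3 members with that order.

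The pyruvate dehydrogenase kinases Pdk2 and Pdk4, which restrain glucose oxidation when fatty acids are burnt, were not called. Pdk4, the kinase induced by fasting, fatty acids and glucocorticoids, was at 46.6, 16.1 and 24.6 RPKM in Rbpms KO and 69.1, 67.6 and 27.5 RPKM in WT. Its log2 change of -0.92 was the lowest of all members, and its SE of 0.44 the largest (limma adjusted p = 0.252). Rbpms KO replicate 1 lay above WT replicate 3, so the groups overlapped. Pdk2 was at 28.1, 24.3 and 23.7 RPKM in Rbpms KO and 30.8, 35.1 and 30.0 RPKM in WT, without overlap (log2 change -0.33, limma adjusted p = 0.0846). The ratio of Pdk2 to Pdk4 was 0.603, 1.51 and 0.964 in Rbpms KO and 0.446, 0.519 and 1.09 in WT, so WT replicate 3 stood with the Rbpms KO libraries. Mlycd, malonyl-CoA decarboxylase, was at 6.62, 6.34 and 7.02 RPKM in Rbpms KO and 12.6, 13.1 and 6.68 RPKM in WT (log2 change -0.61, limma adjusted p = 0.154). Here too WT replicate 3 lay inside the Rbpms KO range and the other WT libraries far above it. Acacb, the acetyl-CoA carboxylase that makes malonyl-CoA at mitochondria, was at 8.63, 9.24 and 9.03 RPKM in Rbpms KO and 12.4, 13.7 and 8.01 RPKM in WT (log2 change -0.29).

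**Figure D3:**
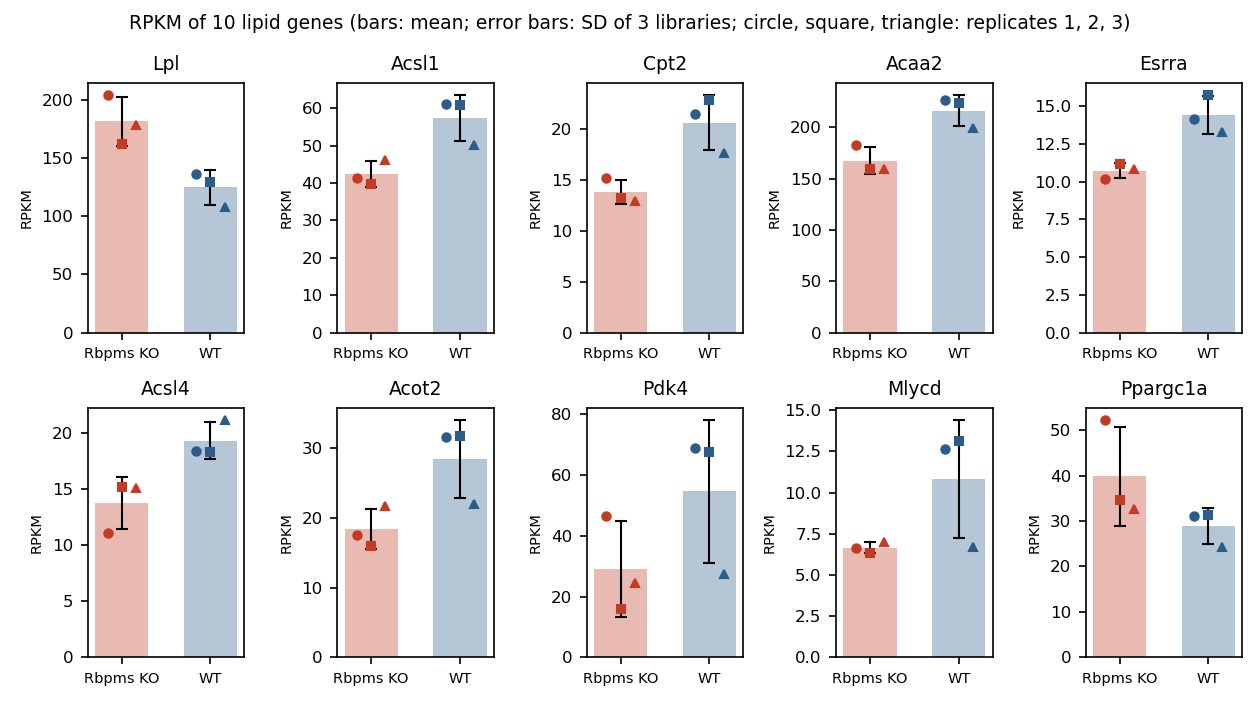
RPKM on linear axes from 0 for the 5 called members (upper row) and 5 members that were not called (lower row), Rbpms KO left and WT right. Bars are means of 3 libraries, error bars are SD, and circle, square and triangle are replicates 1, 2 and 3. Groups separate in the upper row, and in Pdk4 and Mlycd the WT triangle lies at 27.5 and 6.68 RPKM, among the Rbpms KO points.

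The call of each of the 5 genes changed with the settings. Without Rbpms KO replicate 1 the called members were Cpt2, Acaa2 and Pdk2, all lower. Without Rbpms KO replicate 2, Rbpms KO replicate 3, WT replicate 1 or WT replicate 2, no member was called (limma, 3 against 2 libraries). Without WT replicate 3, 9 members were called lower and 0 higher, namely Acsl1, Cpt1a, Cpt2, Acaa2, Decr1, Acot2, Mlycd, Acacb and Esrra. In that setting 482 of all tested genes were called lower and 386 higher. After rescaling by the median ratio the Acsl1, Acaa2 and Esrra calls were lost (limma adjusted p = 0.0843, 0.0721 and 0.0613). Without the mean-variance trend the Lpl, Acsl1, Acaa2 and Esrra calls were lost (limma adjusted p = 0.0537, 0.0726, 0.0777 and 0.0540), and Cpt2 stayed called under both settings. With WT replicates 1 and 2 averaged, 0 members were called in either direction.

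**Figure D4:**
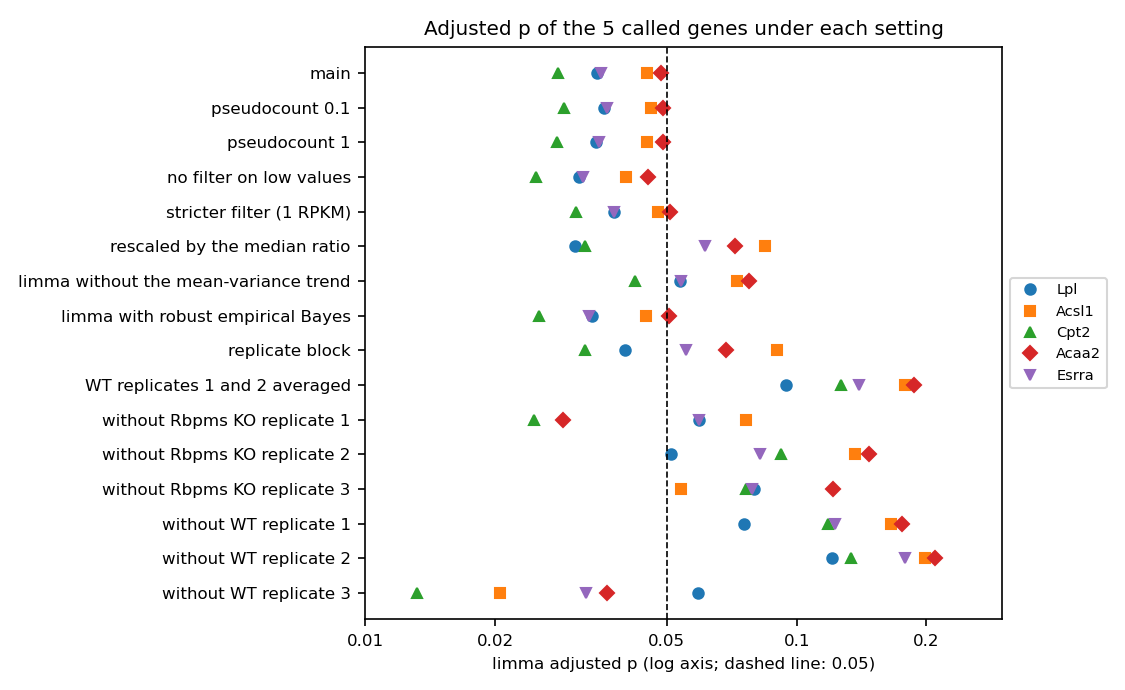
Limma adjusted p (log axis) of the 5 called members in each row's setting, with a dashed line at 0.05. Points right of the line are no longer called. Pseudocounts of 0.1 and 1 leave all 5 left of the line, and averaging WT replicates 1 and 2 puts all 5 right of it, from 0.0946 for Lpl to 0.187 for Acaa2.

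In the authors' deposited table, 5 of the 39 members were lower in Rbpms KO at an FDR below 0.05 (Acsl1, Acsl4, Cpt2, Acaa2 and Acot2), against 5.64% of all genes, and 1 was higher (Lpl), against 5.45%. The authors' deposited table gave Esrra an FDR of 0.0542 and Lpl an FDR of 0.00181 with a log2 fold change of 0.58. The authors' deposited table and the RPKM values come from the same 6 libraries.

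Promoters of 3 of the 4 members that fell (Acsl1, Cpt2 and Esrra) are set beside those of Cpt1a and Acadm, because ERRalpha and PPARalpha bind copies of the hexamer AGGTCA upstream of many oxidation genes. Each line holds the 250 bases before a RefSeq start site (GRCm38.p6), 5′ to 3′ on the strand of the gene, and capitals mark AGGTCA on either strand. The Acaa2 promoter is not shown. Cpt1a and Acadm both hold the hexamer and most members with a promoter here do not, so the lines shown do not compare called members with the rest.

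Acsl1 first start promoter, chr8:46470787-46471036, plus strand: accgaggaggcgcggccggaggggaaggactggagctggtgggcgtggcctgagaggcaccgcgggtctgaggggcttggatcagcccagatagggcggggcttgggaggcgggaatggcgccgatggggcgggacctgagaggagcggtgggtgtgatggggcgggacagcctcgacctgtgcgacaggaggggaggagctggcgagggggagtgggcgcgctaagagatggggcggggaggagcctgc
Acsl1 second start promoter, chr8:46490716-46490965, plus strand: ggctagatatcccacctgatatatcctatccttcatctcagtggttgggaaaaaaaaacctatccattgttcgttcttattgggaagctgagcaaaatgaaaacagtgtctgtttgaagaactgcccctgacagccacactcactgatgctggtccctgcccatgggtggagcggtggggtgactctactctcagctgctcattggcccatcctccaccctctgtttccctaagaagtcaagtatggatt
Cpt2 promoter, chr4:107923590-107923839, minus strand: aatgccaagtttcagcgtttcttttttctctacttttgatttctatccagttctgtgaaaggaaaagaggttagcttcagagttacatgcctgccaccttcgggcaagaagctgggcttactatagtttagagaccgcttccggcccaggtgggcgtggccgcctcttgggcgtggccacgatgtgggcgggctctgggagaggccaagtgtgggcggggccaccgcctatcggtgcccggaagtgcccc
Esrra promoter, chr19:6921809-6922058, minus strand: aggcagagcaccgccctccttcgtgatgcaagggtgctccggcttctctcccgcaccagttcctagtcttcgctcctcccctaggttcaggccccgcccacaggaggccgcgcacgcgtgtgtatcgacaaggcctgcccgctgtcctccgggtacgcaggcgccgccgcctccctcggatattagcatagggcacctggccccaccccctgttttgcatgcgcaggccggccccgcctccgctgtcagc
Cpt1a promoter, chr19:3323051-3323300, plus strand: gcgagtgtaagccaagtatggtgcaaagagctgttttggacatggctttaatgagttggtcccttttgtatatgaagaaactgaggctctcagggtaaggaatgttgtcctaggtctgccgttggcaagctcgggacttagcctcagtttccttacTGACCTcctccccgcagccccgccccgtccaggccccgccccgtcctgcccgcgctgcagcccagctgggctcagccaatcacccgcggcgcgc
Acadm promoter, chr3:153944644-153944893, minus strand: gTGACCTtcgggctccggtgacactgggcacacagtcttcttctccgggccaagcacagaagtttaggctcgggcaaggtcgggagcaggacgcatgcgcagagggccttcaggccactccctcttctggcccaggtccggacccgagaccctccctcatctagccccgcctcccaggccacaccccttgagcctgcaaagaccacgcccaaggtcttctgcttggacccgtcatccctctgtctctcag

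Of the 40 members 34 had a RefSeq promoter, and 6 of these (17.6%) held AGGTCA on either strand in those 250 bases, beside 15.8% of 27025 genes. The 6 were Cd36, Cpt1a, Acadm, Acadvl, Echs1 and Ucp3. Neither start of Acsl1, nor Cpt2 or Esrra, held the hexamer in these windows. The direct repeat AGGTCANAGGTCA was in 0 members, beside 0.0407% of genes, and TCAAGGTCA was in 0 members, beside 0.422%. Both longer motifs contain the hexamer, and a missing match says only that these letters are not in this window.

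Splicing of the members showed few differences in the authors' deposited tables, which compare a first and a second set of 3 libraries without naming the genotypes. They held 158 events in 37 member genes, and 1 passed an FDR below 0.05 with an inclusion difference of at least 0.1, beside 1.11% of all 39201 events. None of 120 skipped exons (1.13% of all skipped exons passed), 17 mutually exclusive pairs (1.31%), 13 alternative 3' sites (0.773%) and 1 alternative 5' site (1.05%) passed, and 1 of 7 retained introns did (1.11%). That event was a retained intron of Slc27a1. The intron and its flanking exons together span chromosome 8, GRCm38 71579404 to 71580068, plus strand. The event had 5, 3 and 1 inclusion reads against 4, 6 and 3 skipping reads in the first set, and 0 inclusion reads against 10, 5 and 3 in the second (FDR 0.00386 in the authors' deposited table, difference 0.24). It rests on few reads. A 54-base exon of Cd36 that lies wholly in untranslated sequence (chromosome 5, GRCm38 17835618 to 17835671, minus strand) had an FDR of 0.00487 in the authors' deposited table. In that event its inclusion levels were 0.899, 0.902 and 0.892 in the first set and 0.816, 0.813 and 0.846 in the second. They rest on 498 to 598 and 396 to 495 inclusion reads per library. The sets did not overlap there, and the difference of 0.07 was under the threshold of 0.1. Other events of the same exon did not pass the FDR. The best covered of them had 0.771, 0.744 and 0.802 in the first set and 0.84, 0.752 and 0.795 in the second. Its difference of -0.02 was in the opposite direction.

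Outside the 39 members, 78 further genes of lipid uptake, peroxisomal oxidation, lipid droplets, ketone use and regulation were examined in the same fit. Of these 75 were in the table and 73 were tested, with a median log2 change of -0.14, beside -0.03 over all tested genes. In Rbpms KO 10 of the 73 fell, against 3.99% of all tested genes, and 2 rose, against 2.38%. Prkaa2, the catalytic AMP-activated kinase subunit of muscle, was at 30.0, 30.7 and 33.5 RPKM in Rbpms KO and 49.4, 50.5 and 49.7 RPKM in WT (log2 change -0.66, limma adjusted p = 0.00208). Mgll, monoacylglycerol lipase, was at 7.06, 7.60 and 9.28 RPKM in Rbpms KO and 13.6, 14.6 and 14.4 RPKM in WT (log2 change -0.80, limma adjusted p = 0.00584). Bdh1, the mitochondrial enzyme that oxidises the ketone body beta-hydroxybutyrate, was at 0.556, 0.703 and 0.711 RPKM in Rbpms KO and 1.63, 1.68 and 1.85 RPKM in WT (log2 change -0.94, limma adjusted p = 0.00358). In these 3 genes the WT libraries lay close together, WT replicate 3 included. Their calls held as any 1 library was left out (highest limma adjusted p 0.0192, 0.0426 and 0.0284) and with WT replicates 1 and 2 averaged.

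Hsd17b4, the peroxisomal multifunctional enzyme, and Ppargc1b, the coactivator PGC-1beta, fell by 0.47 and 0.63 on the log2 scale, with limma adjusted p of 0.00747 each. Both calls were lost only without WT replicate 2 among the settings tried (0.0643 and 0.0611). Angptl4, a secreted inhibitor of lipoprotein lipase, was at 0.946, 0.970 and 0.797 RPKM in Rbpms KO and 7.82, 7.81 and 2.09 RPKM in WT (log2 change -2.01, limma adjusted p = 0.0288). Plin5, a lipid droplet coat protein that tethers droplets to mitochondria, was at 1.77, 1.51 and 1.71 RPKM in Rbpms KO and 4.94, 5.27 and 2.46 RPKM in WT (log2 change -1.07, limma adjusted p = 0.0384). In both genes WT replicate 3 was the WT library nearest to Rbpms KO. G0s2, an inhibitor of adipose triglyceride lipase, Pcca, a propionyl-CoA carboxylase subunit, and Acaca, the cytosolic acetyl-CoA carboxylase, fell by 0.67, 0.44 and 0.42 on the log2 scale. The Acaca call was lost without any 1 library (highest limma adjusted p 0.211) and the Angptl4 and Plin5 calls without any 1 library except WT replicate 3 (0.124 and 0.157). The Pcca call was lost without Rbpms KO replicate 2 or 3 or WT replicate 1 or 2 (highest limma adjusted p 0.1102). The G0s2 call was lost without WT replicate 1 or 2 (highest limma adjusted p 0.0648). With WT replicates 1 and 2 averaged, the Angptl4, Plin5, G0s2, Pcca and Acaca calls were all lost (limma adjusted p = 0.0592 to 0.153). Under the replicate block the Pcca and Acaca calls were lost (limma adjusted p = 0.0577 and 0.0763).

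Among these further genes, Fabp5 and Klf15 rose. Fabp5, a fatty acid binding protein of epidermis and endothelium, was at 56.2, 59.2 and 52.5 RPKM in Rbpms KO and 39.1, 33.3 and 44.9 RPKM in WT (log2 change 0.52, limma adjusted p = 0.0335). Klf15, a transcription factor induced by glucocorticoids, was at 19.4, 11.4 and 11.2 RPKM in Rbpms KO and 5.33, 5.37 and 8.15 RPKM in WT (log2 change 1.08, limma adjusted p = 0.0344). The groups did not overlap in either gene, and both calls were lost with WT replicates 1 and 2 averaged (0.118 and 0.145). The Fabp5 call was also lost without any 1 library except WT replicate 3, and the Klf15 call without Rbpms KO replicate 2 or WT replicate 1 or 2 (highest limma adjusted p 0.125 and 0.149). Acot1, a cytosolic thioesterase close in sequence to Acot2, was not called (log2 change -0.87). Reads may be split between Acot1 and Acot2, so the level of each is uncertain.

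**Figure D5:**
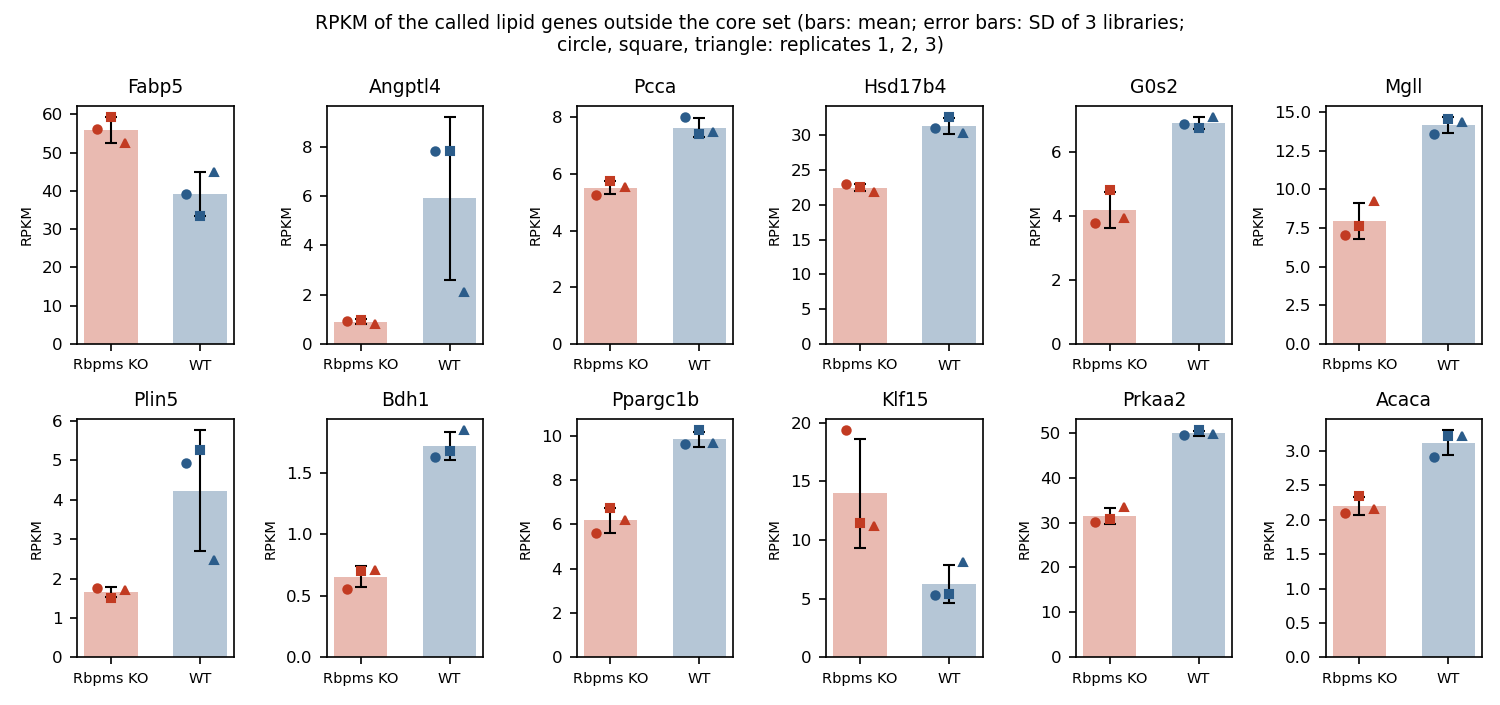
RPKM on linear axes from 0 for the 12 further lipid genes that were called, Rbpms KO left and WT right, with bars as means, error bars as SD of 3 libraries and circle, square and triangle as replicates 1, 2 and 3. Fabp5 and Klf15 are higher in Rbpms KO. In Prkaa2, Mgll and Bdh1 the 3 WT points sit together above the Rbpms KO points, and in Angptl4 and Plin5 the WT triangle lies nearest to Rbpms KO, at 2.09 and 2.46 RPKM.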

How the data were processed

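Gene expression values were RPKM as deposited by the authors, with gene lengths in kilobases, for 14004 genes in 6 ventricle libraries. The products of RPKM and length add up to 1000000 per library, which makes the values relative to the listed genes. Whole reads were not recovered, so the depth is unknown, no count test was run, and no interval from counts is given. The submitters' processing notes name FastQC 0.11.4, featureCounts 1.6.0, edgeR 3.30.1 and the build GRCm38 (mm10). For the aligner and all settings nothing is given in the sources used here. The authors' deposited comparison holds log2 fold changes, a score, p-values and FDR. Its fold changes are Rbpms KO over WT. The deposited splicing tables, named after rMATS, hold junction read counts and inclusion fractions per library, per the file headers, in 2 unnamed sets. Counts whose separating commas were lost were read back so that they gave the printed inclusion levels within 0.00051.

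Groups came from the sample titles. Genes that reached 0.5 RPKM in 3 or more of 6 libraries (12911, with 1093 left out) were tested with limma 3.58.1 in R 4.3.3 on log2(RPKM + 0.5) with a mean-variance trend. P-values were Benjamini-Hochberg adjusted over all tested genes and called below 0.05. This scale understates the change of low genes. The test was also run on data simulated from these libraries (12911 genes, 200 changed, 20 simulations). There it found 45.5% of genes changed 1.5-fold and 82.3% of those changed 2-fold, with 4.31% false calls. Whether these shares hold for the measured libraries, where WT replicates 1 and 2 were the closest pair, was not tested. Positions are from GENCODE M21 and promoters from RefSeq, GRCm38.p6. The listed length of some genes differs from GENCODE M21, so the annotation used for counting is not known exactly.

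The members and all lists were chosen with earlier results of these data known. Genes named with values in each library are the called members, those with the largest and smallest change per step, the 5 most abundant, the listed pairs and every called gene of the other lists. The remaining values were chosen after they were seen. Alternatives were the pseudocount (0.1 and 1), the filter on low values, rescaling by the median ratio, limma without the trend or with robust empirical Bayes, the replicate block, WT replicates 1 and 2 as their mean, and leaving out each library. Replicate numbers were not taken as pairs.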

Additional observations from a re-analysis of the deposited data

How the results depend on the processing

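Pseudocounts of 0.1 and 1 and testing all listed genes left every named call on its side of the threshold. The stricter filter and robust empirical Bayes each ended the Acaa2 call alone. Members called lower, 4 as reported, numbered 1 after rescaling by the median ratio, 1 without the trend, 1 under the replicate block and 0 with WT replicates 1 and 2 averaged. Members called higher, 1 as reported, numbered 0 without the trend and 0 with that average. Over single libraries left out they ranged from 0 to 9 lower and stayed at 0 higher. The further lipid genes called lower, 10 as reported, numbered 5 with the average (3 to 16 over libraries left out). Those called higher, 2 as reported, numbered 1 without the trend, 0 under the block and 0 with the average (0 to 2). Of all tested genes, 307 were called higher and 515 lower. Rescaling, which moved the median log2 change by 0.03, gave 417 higher and 425 lower. The average gave 48 higher and 163 lower, the block 192 higher, and single libraries left out 45 to 386 higher and 147 to 545 lower. The average leaves fewer samples. The cause of the other differences was not tested.

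Small log2 changes that were never called reversed sign. Rescaling gave 0.0086 for Acadl and 0.017 for Cd36. The average gave 0.0020 for Acadl, 0.029 for Cd36, 0.014 for Fabp3 and -0.00071 for Ucp2. Over single libraries left out the changes ranged from -0.082 to 0.010 for Acadl, -0.018 to 0.096 for Acot13 and -0.11 to 0.082 for Cd36. In the same settings they ranged from -0.14 to 0.072 for Fabp3, -0.13 to 0.036 for Fabp4 and -0.072 to 0.18 for Ucp2. The replicate numbers pair nothing in the labels, and deviations of same-numbered libraries from their group means correlated at 0.21, -0.27 and 0.12. Under the replicate block the Acsl1, Acaa2 and Esrra calls were lost (limma adjusted p = 0.0901, 0.0686 and 0.0555), and Lpl and Cpt2 stayed called (0.0401 and 0.0322). With unknown depth and 3 libraries a genotype, a difference that missed the threshold may still exist.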
